A study of Mus musculus with 2 samples.

Results

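The mucin and mucus cell genes of the airways, 10 in number, were followed in polyadenylated RNA from the lung of 1 female adult C57BL/6J mouse, aged 10 weeks, an inbred strain with no transgene or treatment named in the labels. They are the secreted mucins Muc5ac and Muc5b, the membrane mucins Muc1, Muc4, Muc15, Muc16 and Muc20, and the mucus cell genes Agr2, Spdef and Tff2. The genes were chosen by name. By gene identifier, 9 of the 10 were matched among 43346 gene rows, and Muc16 was represented by a short transcript only, described with its values. The lung was sequenced in 2 libraries, technical replicate 2 (made later, per the labels) and technical replicate 1, which form 1 group. Conditions are not compared and only 1 animal was sampled, so each SD given here is the spread over n = 2 technical libraries and not between animals. Replicate 2 held 17110882 expected counts and replicate 1 held 16104442. An expected count is the estimated number of reads of a gene, and TPM is its abundance per 1000000 transcripts, which takes length into account.

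Mucins are long glycoproteins whose serine- and threonine-rich stretches carry many O-linked sugar chains. Muc5b and Muc5ac are released from secretory cells of the airways, join through disulfide bonds at their cysteine-rich ends and swell into the mucus gel, whereas the membrane mucins stay tethered to the cell surface and form the layer beneath it. In mice Muc5b is the mucin made in healthy airways and needed for mucus clearance, and Muc5ac is known for its induction in allergic inflammation, where mucous cells under the control of Spdef become numerous.

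The sequence of these genes shows both designs. The coding sequence of the longest Muc5b transcript (GENCODE M21) held 301 cysteine codons among 4800 codons, or 6.3%, and that of Muc5ac held 255 among 3455, or 7.4%. Cysteine made up 0.5% of the codons of Muc1, 1.4% of Muc4, 0.3% of Muc15 and 0.6% of Muc20. Serine and threonine codons together made up 34.9% in Muc1, 38.1% in Muc4, 35.2% in Muc20, 23.6% in Muc15, 26.2% in Muc5b and 23.5% in Muc5ac, against 14.9% in Agr2, 12.6% in Spdef and 10.1% in Tff2. Tandem repeats were found in the coding sequence of Muc1 (units of 60 bases over 30.7% of it), Muc4 (372 bases, 37.4%), Muc5ac (48 bases, 11.6%) and Muc20 (27 bases, 9.1%). The search asked for at least 70% identity between units of 24 to 400 bases, and it found no repeat in the other 5 genes matched by identifier.

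Neighbouring units of the Muc1 and Muc5ac repeats are shown because these are the stretches that carry the sugars. They are written on the plus strand of GRCm38, from GENCODE M21 transcripts, and capitals mark the bases that differ from unit 1 of the same gene. The Muc1 units lie at chr3:89229985-89230044, chr3:89230045-89230104 and chr3:89230105-89230164, and the Muc5ac units at chr7:141808648-141808695 and chr7:141808696-141808743. Unit 2 and unit 3 of Muc1 were 76.7% and 75.0% identical to unit 1, and unit 2 of Muc5ac was 95.8% identical to its unit 1.
Muc1 repeat unit 1: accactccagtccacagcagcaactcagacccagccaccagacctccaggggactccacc
Muc1 repeat unit 2: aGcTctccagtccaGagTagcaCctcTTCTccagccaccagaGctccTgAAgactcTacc
Muc1 repeat unit 3: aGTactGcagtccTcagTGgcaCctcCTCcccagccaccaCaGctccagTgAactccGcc
Muc5ac repeat unit 1: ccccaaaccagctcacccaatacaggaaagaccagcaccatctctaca
Muc5ac repeat unit 2: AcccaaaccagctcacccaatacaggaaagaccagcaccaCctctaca

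The libraries stood apart before any of these genes was considered. Of 14139 genes whose TPM averaged 1 or more, 5554 (39.3%) had a ratio of replicate 2 over replicate 1 above 2-fold and 3989 (28.2%) had one below the inverse of that, around a median log2 ratio of 0.19. The ratio moved with the GC content of the transcripts: with genes split into 10 equal classes, or deciles, by GC content, its median was -1.95 in decile 1, of lowest GC content, and 5.08 in decile 10. All ratios below are of counts scaled with the TMM method. They describe these libraries, 1 on each side, and no p-value can be attached to them, and their intervals are exact 95% intervals that cover counting error only. GC content is therefore given beside the ratios of the mucin and mucus cell genes, and its part in the result was not tested. Markers of lung cells were present in both libraries: all 6 genes listed for alveolar type 2 cells and all 6 for club cells reached 1 TPM in each, and the alveolar list summed to 42812 TPM in replicate 2, against 1779 TPM in replicate 1, and the club cell list to 187643 TPM in replicate 2, against 24503 in replicate 1. A single gene carried each sum in replicate 2, Sftpc and Scgb1a1, and the lists did not move together: 3 of the 6 alveolar genes were over 2-fold higher and 1 lower, and 4 of the 6 club cell genes were higher and 1 lower. Both libraries came from 1 animal, and the cause of these differences, whether technical or in the cells sampled, was not tested. Since this is whole tissue, a marker level also cannot tell the number of cells from the RNA per cell.

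Muc1 was far above the other genes, and most mucus genes were low. A TPM of at least 1 was reached in replicate 2 by 7 of the 9 matched genes and in replicate 1 by 4, and the same 4 (Muc1, Muc4, Muc20 and Agr2) reached it in both. For comparison, 32.5% of all gene rows reached 1 TPM in replicate 2, 28% in replicate 1 and 26.2% in both, and among protein-coding genes 49.9% did so in both. Over the 9 genes the TPM added up to 235.3 in replicate 2 and 55.6 in replicate 1, and Muc1 alone held 77.4% of the sum in replicate 2 and 84.0% in replicate 1. By mean TPM the order was Muc1 (114.4 ± 95.7), Tff2 (15.4 ± 20.5), Muc4 (5.74 ± 0.98), Agr2 (3.83 ± 3.54), Muc20 (3.18 ± 2.64), Muc5b (1.63 ± 1.99), Spdef, Muc5ac and Muc15. Muc1 did not overlap Tff2 between libraries, whereas every later pair of neighbours in this order overlapped. Within each library, however, Muc4, Agr2, Muc20, Muc5b and Spdef kept this order. Some of these were close, as Muc4 and Agr2 in replicate 2 (6.43 and 6.33 TPM) and Agr2 and Muc20 in replicate 1 (1.33 and 1.31 TPM). Tff2 moved from 29.88 TPM in replicate 2 to 0.88 in replicate 1, below Muc4, Agr2 and Muc20. The places of Tff2, Muc5ac and Muc15 and the order within close pairs are not settled by these libraries.

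**Figure D1:**
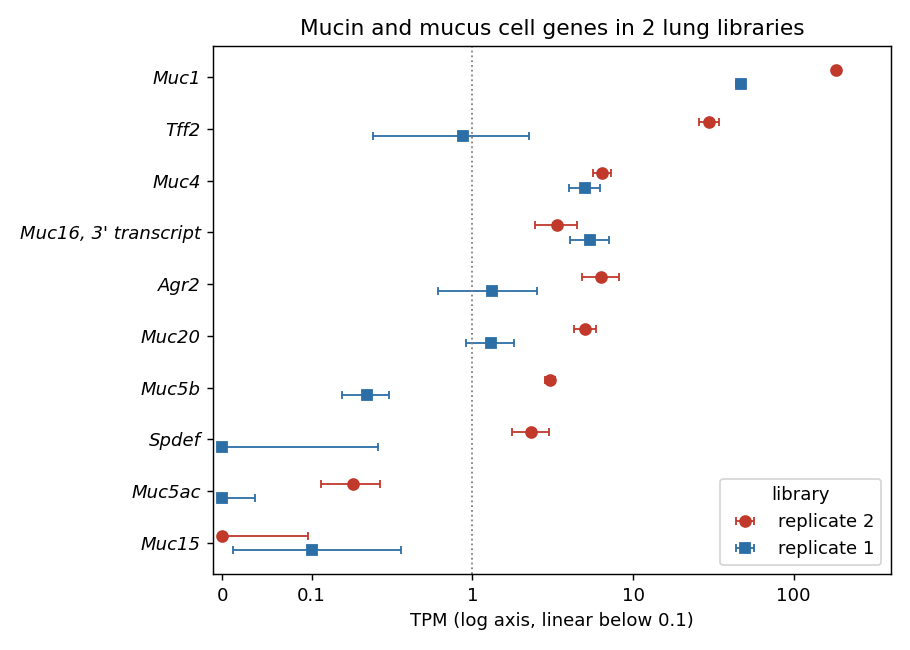
TPM of each gene in replicate 2 (circles) and replicate 1 (squares), on a log axis that is linear below 0.1, with exact 95% Poisson intervals of the counts as bars. Muc1 sits at 182 TPM for replicate 2 and at 46.7 for replicate 1, to the right of all others, Spdef and Muc5ac sit at 0 in replicate 1, and the dotted line marks 1 TPM.

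Of the gel-forming mucins, Muc5b was measured in both libraries and Muc5ac in replicate 2 only. Muc5b (ENSMUSG00000066108.7, chr7:141839070-141873084, plus strand) had 710 counts (3.04 TPM) in replicate 2 and 36 counts (0.22 TPM) in replicate 1. Its scaled counts were 15.5-fold higher in replicate 2 (11.1 to 22.3), and the annotated transcript of 14964 bases had a GC content of 54.1%. In that GC decile, the 8th, the median log2 ratio was 2.56 and 77.0% of genes were over 2-fold higher in replicate 2, against 3.93 for Muc5b.

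Muc5ac (ENSMUSG00000037974.11, chr7:141788972-141819231, plus strand) had 24 counts (0.18 TPM) in replicate 2 and 0 counts in replicate 1. A floor of 3 counts per library was used (0.175 CPM, counts per 1000000, in replicate 2 and 0.186 CPM in replicate 1). With its 0 set to that floor Muc5ac was 6.28-fold higher in replicate 2, and the exact lower bound was 4.73-fold, at a GC content of 54.3%. It missed the mean of 1 TPM and is not counted among the ratios. Its counts in replicate 2 lay on the 8505-base transcript (19.6 counts) and the 10752-base transcript (4.40 counts), both coding for the mucin. The genes of both mucins lie on the same strand, 19838 bases apart. In each library Muc5b was above Muc5ac, and in replicate 2 their exact intervals on the TPM scale, 2.82 to 3.27 for Muc5b and 0.115 to 0.268 for Muc5ac, did not overlap. In replicate 1 the interval of Muc5b was 0.154 to 0.305 TPM, and the 0 counts of Muc5ac had an upper bound of 0.0367 TPM.

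Among the membrane mucins, Muc1 led in both libraries and its ratio was smaller than that of most genes of like GC content. Muc1 (ENSMUSG00000042784.5, chr3:89229057-89233381, plus strand) encodes a mucin of the apical surface of airway and alveolar epithelium. It had 3296 counts (182 TPM) in replicate 2, rank 583 among protein-coding genes, and 1077 counts (46.7 TPM) in replicate 1, rank 2471. Scaled counts were 2.40-fold higher in replicate 2 (2.24 to 2.58), a log2 ratio of 1.26. With a GC content of 54.6% it fell in the same decile as Muc5b, so its ratio differed from the median of 2.56 by -1.30, and with the trend on GC content subtracted the sign turned, to -1.10.

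The Muc1 fold was larger in TPM (3.90) than in counts, and a short transcript was measured beside the main one in replicate 2. The full-length coding transcript of 2242 bases had 88.0 TPM in replicate 2, against 46.7 TPM in replicate 1, a fold of 1.89. A noncoding transcript of 476 bases had 89.5 TPM in replicate 2 and 0 in replicate 1. In replicate 2 these transcripts held 48.3% and 49.2% of Muc1, nearly equal shares of TPM, but only 12.6% of the Muc1 counts (414) were given to the short one. The start of the short transcript is shown because it is what sets it apart: its first exon of 30 bases, in capitals, is not an exon of the 2242-base transcript, whereas its last 448 of 476 bases occur there as 1 run. That run takes in the last letters of the capitals, which are the same as those that end the preceding exon of the 2242-base transcript. The 60 bases shown are on the plus strand of GRCm38 and span an intron, between the bases at chr3:89231471-89231792.
Muc1 476-base transcript start: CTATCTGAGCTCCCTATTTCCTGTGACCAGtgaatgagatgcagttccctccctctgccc
Since nearly all of the short transcript is shared, its level is an estimate of how shared reads divide, and the gene's TPM in replicate 2 is uncertain to that extent.

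Muc4 and Muc20 overlap on chromosome 16 and were both low. Muc4 (ENSMUSG00000079620.9, chr16:32735886-32782391, plus strand) encodes a long membrane mucin known as a partner of the receptor ErbB2. It had 219 counts (6.43 TPM) in replicate 2 and 85 counts (5.04 TPM) in replicate 1, the closest pair of TPM values among the genes that reached 1 TPM in both. Its scaled counts were 2.02-fold higher in replicate 2 (1.57 to 2.63), and the fold of TPM was 1.28. Its ratio lies at the 2-fold threshold and fell under it with DESeq2 size factors (0.97 on the log2 scale) and for TPM (0.35), and with the GC trend subtracted it was -0.29. The GC content was 52.5%, in a decile with a median log2 ratio of 1.55.

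Most of the Muc4 signal was not on the full-length mucin. A noncoding transcript of 1348 bases at the 3′ end of the gene had 4.34 TPM in replicate 2, against 4.82 TPM in replicate 1. By TPM it held 67.4% of the gene in replicate 2 and 95.6% in replicate 1. By counts it held only 36.4% in replicate 2 and 74.1% in replicate 1. A coding transcript of 4575 bases had 1.56 TPM (108 counts, or 49.5% of the gene's counts) in replicate 2 and 0 in replicate 1. The full-length transcript of 11277 bases, in which the 372-base repeats were found, had 0 counts in both libraries. A noncoding transcript of 10805 bases, over nearly the same span, had 29.6 counts in replicate 2 and 21.6 in replicate 1. Its share of the gene's counts was 13.5% in replicate 2 and 25.4% in replicate 1, at 0.18 TPM in each.

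Muc20 (ENSMUSG00000035638.10, chr16:32777419-32797435, minus strand), a smaller membrane mucin known from kidney epithelium, had 171 counts (5.04 TPM) in replicate 2 and 36 counts (1.31 TPM) in replicate 1. It was 3.73-fold higher in replicate 2 (2.59 to 5.50). Its GC content was 51.8%, in a decile where the median log2 ratio was 0.71 and 42.0% of genes were over 2-fold higher, against 1.88 for Muc20. The 2299-base transcript led in both libraries, with 4.90 TPM (97.3% of the gene) in replicate 2 and 0.99 TPM (75.3%) in replicate 1. The 3673-base transcript had 0.13 TPM in replicate 2 and 0.32 TPM in replicate 1.

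The Muc4 and Muc20 genes run towards each other and overlap by 4973 bases on opposite strands. The overlap takes in 381 exon bases of the 1348-base Muc4 transcript and 627 of the 3673-base Muc20 transcript, but none of the 2299-base one. Whether the counting used strand is not given in the sources used here, so reads in the shared bases may belong to either gene, and the values of Muc4 and of the longer Muc20 transcript are uncertain.

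**Figure D2:**
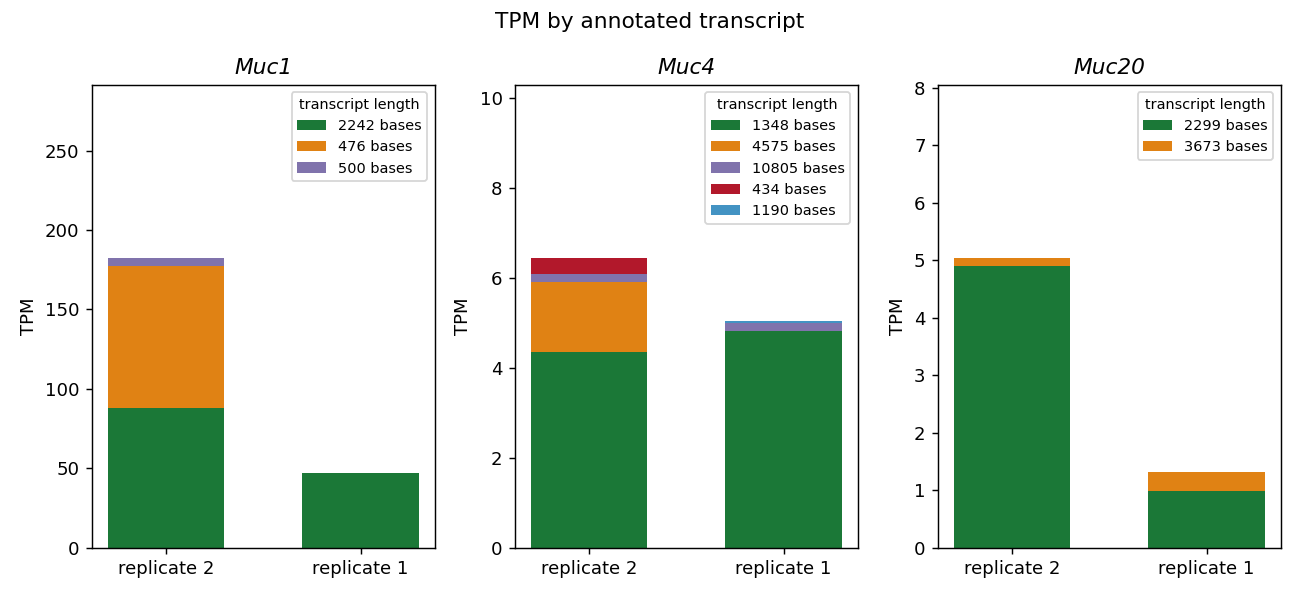
Stacked bars of TPM by annotated transcript for Muc1, Muc4 and Muc20, replicate 2 left of replicate 1, with each colour a transcript named by its length in bases. The 476-base Muc1 transcript (89.5 TPM in replicate 2) and the 4575-base Muc4 transcript (1.56 TPM in replicate 2) are absent from replicate 1, and the 2299-base transcript leads Muc20 in both.

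For Muc15 and Muc16, the other membrane mucins, no clear difference between the libraries could be read. Muc15 (ENSMUSG00000050808.9, chr2:110721340-110739527, plus strand), a small membrane mucin, had 0 counts in replicate 2 and 2 counts (0.10 TPM) in replicate 1. Both libraries were at or under the floor of 3 counts, so no fold is given. At 39.0% it had the lowest GC content of the 9 genes, in the decile where 94.4% of genes were over 2-fold lower in replicate 2, and its whole span of 18188 bases is covered by Ano3 on the opposite strand (0.03 TPM in replicate 2, 0.08 TPM in replicate 1).

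Muc16, the largest tethered mucin, known from the eye surface, airways and mesothelium, could be read only at its 3′ end. Its identifier in GENCODE M21 had no row, but 1 of its transcripts, of 1035 bases and 9 exons (chr9:18495455-18512885, minus strand), was quantified under another gene identifier (ENSMUSG00000032134.6). That transcript is 4.07% as long as the longest annotated Muc16 transcript of 25437 bases. It had 45 counts (3.35 TPM) in replicate 2 and 52 counts (5.43 TPM) in replicate 1. The fold was 0.68 (0.446 to 1.03), an interval that includes 1, and the GC content of 46.0% put it in a decile with a median log2 ratio of -0.94. It is kept out of the counts over the 9 matched genes.

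The mucus cell genes Agr2, Spdef and Tff2 were each above 2 TPM in replicate 2, and only Agr2 reached 1 TPM in replicate 1. Agr2 (ENSMUSG00000020581.7, chr12:35992907-36004087, plus strand) encodes a disulfide isomerase of the endoplasmic reticulum that, in mouse intestine, is needed to make mucin. It had 60 counts (6.33 TPM) in replicate 2 and 9 counts (1.33 TPM) in replicate 1, and was 5.23-fold higher in replicate 2 (2.58 to 12), a log2 ratio of 2.32. Its GC content of 46.4% lies in a decile whose median was -0.94 and in which 2.77% of genes were over 2-fold higher, so Agr2 was 3.26 above that median. All its counts were on the coding transcript of 784 bases.

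Spdef (ENSMUSG00000024215.9, chr17:27714352-27728955, minus strand), the ETS-family transcription factor of goblet cells, had 57 counts (2.33 TPM) in replicate 2 and 0 counts in replicate 1. With the 0 set to the floor of 3 counts it was 14.9-fold higher in replicate 2, and the exact lower bound was 11.7-fold. Its GC content of 59.9% was the highest of the 9 genes. In that decile 92.35% of genes were over 2-fold higher, with a median log2 ratio of 5.08, above the 3.90 that the floor gives for Spdef. Its leading transcript, 1824 bases in the deposited tables, held 55.0 of the counts.

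Tff2 (ENSMUSG00000024028.7, chr17:31141049-31144282, minus strand) encodes a small trefoil peptide secreted with mucus, best known from the stomach. It had 189 counts (29.9 TPM) in replicate 2 and 4 counts (0.88 TPM) in replicate 1, and was 37.1-fold higher in replicate 2 (14.25 to 137.5). This was the largest ratio among the genes with counts in both libraries, at 5.05 on the log2 scale. Its GC content was 53.6%, in a decile with a median of 1.55, so it lay 3.50 above that median. The gene has 1 transcript, of 584 bases, whose reading frame holds 14 cysteine codons among 129 codons, or 10.9%, the highest share of the 9 genes. Cysteines fold the trefoil domain through disulfide bonds, and the 150 coding bases with the densest run of them are shown for that reason, on the minus strand of GRCm38 between chr17:31143136-31144191 with an intron left out. Capitals mark the 7 cysteine codons.
Tff2 coding window: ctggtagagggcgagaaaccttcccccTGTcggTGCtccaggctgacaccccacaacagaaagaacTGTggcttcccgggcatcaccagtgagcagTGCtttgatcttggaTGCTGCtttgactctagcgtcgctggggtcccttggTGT

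Of genes that mark the stomach lining, Gkn3 had 6.62 TPM (69 counts) in replicate 2 and 0.13 TPM (1 count) in replicate 1, whereas Gkn1 and Atp4b had 0 counts in both libraries. The 6 genes on that list summed to 6.89 TPM in replicate 2, against 0.2 TPM in replicate 1, and nearly all of the former was Gkn3. Gkn2, Cblif and Atp4a had 2 counts or fewer in each library, so the list rests on 1 gene. Whether stomach cells were present, or had a part in the Tff2 values, was not tested. Sums of other marker lists differed between the libraries too. The ciliated cell list had 889.3 TPM in replicate 2, against 120 TPM in replicate 1, and all 6 of its genes were over 2-fold higher. Different genes carried the 2 ciliated sums. Tppp3 (GC content 58.5%) had 547.38 TPM in replicate 2 and 1.15 in replicate 1, and Dynlrb2 (47.8%) had 163.72 and 89.27. The submucosal gland list had 645.8 TPM in replicate 2, against 171.5 TPM in replicate 1. Most of the gland sum was Bpifa1, a secreted airway protein, at 626.61 TPM in replicate 2 and 166.40 in replicate 1, while Lpo had 0 counts in both. The mesothelial list, of cells known to make Muc16, had 277.1 TPM in replicate 2 and 210.4 in replicate 1, but 3 of its 6 genes were over 2-fold higher and 3 were over 2-fold lower. Krt19, a keratin shared with other epithelia, had 157.14 TPM in replicate 2 and 4.69 in replicate 1, and Gpm6a, a membrane protein, had 29.93 in replicate 2 and 176.22 in replicate 1. The squamous list had 4.27 TPM in replicate 2 and 2.34 in replicate 1, and the basal cell list 7.94 in replicate 2 and 3.28 in replicate 1. Most of the basal sum was Dapl1, at 5.69 TPM in replicate 2 and 1.81 in replicate 1, whereas Trp63, the defining basal cell factor, had 0.18 TPM (11 counts) in replicate 2 and 1.19 TPM (58 counts) in replicate 1. The part of these cell types in the mucin ratios was not tested.

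In all, 7 of the 9 matched genes had a mean of at least 1 TPM, and each was over 2-fold higher in replicate 2 and none was lower, with a median log2 ratio of 2.32. Muc5b, Spdef and Tff2 passed that filter through replicate 2 alone, so each had to be higher there. With 0.22 TPM for Muc5b and 0 counts for Spdef in replicate 1, the filter itself forced over 2-fold in TPM. For Tff2, with 0.88 TPM in replicate 1, it forced only a small difference. The share of all tested genes that was over 2-fold higher was 39.3%. The filter left out Muc5ac and Muc15. The GC content of the 7 genes ran from 46.4% (Agr2) to 59.9% (Spdef), and the median ratio of their deciles from -0.94 to 5.08. Muc1 and Muc4 were below the median of their decile. Muc5b, Muc20, Agr2 and Tff2 were above it, and Spdef was above it with a prior of 0.5 counts and below it at the floor. With the trend on GC content subtracted, Muc5b, Agr2, Spdef and Tff2, 4 genes, stayed over 2-fold higher and 1, Muc1, was over 2-fold lower, and Spdef did so only with the prior of 0.5 counts for its 0 in replicate 1.

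**Figure D3:**
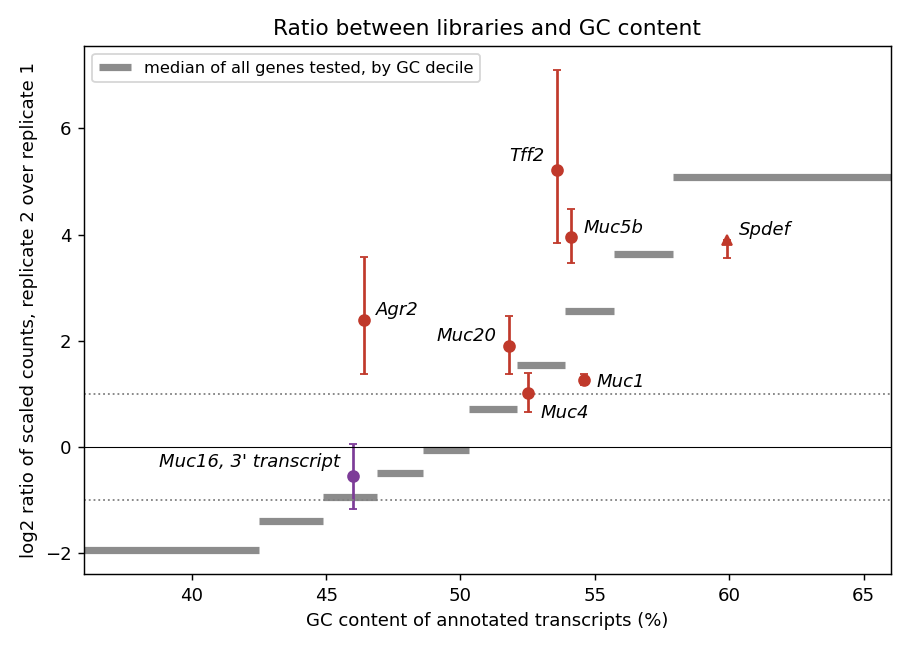
Log2 ratio of scaled counts, replicate 2 over replicate 1, against the GC content of the annotated transcripts, with exact 95% intervals. Grey bars show the median of all tested genes in each decile of GC content. The triangle for Spdef is at its value with the 0 set to the floor of 3 counts. Points are drawn without the prior, Muc16 is drawn for its 3′ transcript only, and the outer bars run past the axis. Agr2 and Tff2 lie above the bar of their decile (by 3.26 and 3.50 with the prior of 0.5 counts) and Muc1 lies under its bar (-1.30), and dotted lines mark 2-fold.

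Promoters were compared for the 6 genes found in the RefSeq table (GRCm38.p6, 250 bases before to 50 after the start). Motifs were searched on both strands, and a match is a description only. The ETS core AGGAAG occurred in Muc4, Muc16, Muc20 and Spdef and in 35.4% of 32851 promoters. The forkhead motif TGTTTNC occurred in Muc1, Muc20 and Agr2 and in 20.5% of promoters, the TATA box TATAAA in Muc1 and Muc4 and in 13.6%, and the GC box GGGCGG in Muc1 and in 35.7%. The Nkx2-1 core CAAGTG, present in 13.6% of promoters, was in none of the 6. The Muc1 and Spdef promoters are shown as those of the gene of highest level and of the goblet cell factor, at chr3:89228806-89229105 (plus strand) and chr17:27728902-27729201 (minus strand), with matches in capitals.
Muc1 promoter: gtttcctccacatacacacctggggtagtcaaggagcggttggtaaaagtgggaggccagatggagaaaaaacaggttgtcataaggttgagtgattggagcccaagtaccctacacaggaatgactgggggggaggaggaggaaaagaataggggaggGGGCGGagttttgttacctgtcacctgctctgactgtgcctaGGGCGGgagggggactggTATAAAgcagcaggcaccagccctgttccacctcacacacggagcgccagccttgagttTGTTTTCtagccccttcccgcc
Spdef promoter: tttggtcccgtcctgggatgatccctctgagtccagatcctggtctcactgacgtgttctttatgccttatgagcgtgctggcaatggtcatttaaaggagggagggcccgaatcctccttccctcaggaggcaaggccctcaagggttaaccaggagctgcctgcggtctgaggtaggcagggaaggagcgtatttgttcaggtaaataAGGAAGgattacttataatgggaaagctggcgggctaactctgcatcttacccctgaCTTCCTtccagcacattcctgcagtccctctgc
The Muc1 window holds 4 matches, with 2 GC boxes ahead of the TATA box, and the Spdef window holds 2, 1 on each strand.

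Other genes listed for the goblet cell program lay on both sides of equal levels. Of 14 listed, 7 averaged 1 TPM or more, and among these 3 had a ratio over 2-fold up in replicate 2, 1 over 2-fold down and 3 in between, with a median log2 ratio of 0.57. Over all tested genes 39.3% were over 2-fold up and 28.2% over 2-fold down, and nothing particular to the list is read from its counts. Scgb3a1, a secretoglobin of airway secretory cells, had 1799 TPM in replicate 2, against 160.49 TPM in replicate 1, and Bpifb1, another secreted airway protein, had 82.4 TPM in replicate 2, against 15.9 in replicate 1. Pigr, the transporter of polymeric immunoglobulin, had 18.3 TPM in replicate 2, against 32.5 in replicate 1, and Agr3, the paralogue of Agr2, had 14.5 TPM in replicate 2, against 31.1 in replicate 1. The secretoglobin and Bpifb1 were thus higher in replicate 2, and Pigr and Agr3 lower, though Pigr, at 0.621-fold, was not past 2-fold. Fcgbp was also over 2-fold up, with 3.78 TPM (104 counts) in replicate 2 and 0 counts in replicate 1. Agr3, the 1 listed gene over 2-fold down, lay at the threshold, with an interval on both sides of it. It was 0.499-fold (0.402 to 0.618) where Agr2 was 5.23-fold, at GC contents of 45.3% and 46.4%. Tff1 and Tff3, the other trefoil genes, had 0 counts in both libraries.

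Regulators of mucous cells were all above Spdef in each library. All 12 listed averaged 1 TPM or more, and 2 of them had a ratio over 2-fold up in replicate 2, 4 over 2-fold down and 6 in between, with a median log2 ratio of -0.81, beside 39.3% up and 28.2% down over all tested genes. Klf4, a transcription factor of epithelial differentiation, had 74.6 TPM in replicate 2, against 150.09 TPM in replicate 1. Hes1, a target of Notch signalling, had 69.3 TPM in replicate 2, against 128 in replicate 1, and Nkx2-1, the lung epithelial homeobox factor, had 54.8 TPM in replicate 2, against 124 in replicate 1. Il13ra1, a receptor subunit for the cytokine that induces mucous cells, had 20.6 TPM in replicate 2, against 103 in replicate 1. These 4 regulators of highest level were all lower in replicate 2. The 2 over 2-fold up were Il4ra (25.82 TPM in replicate 2, 0.71 in replicate 1) and Elf3 (17.53 and 1.25). GC content was 61.5% for Klf4 and 58.8% for Hes1, in decile 10, with its median log2 ratio of 5.08. It was 56.2% for Nkx2-1 and 55.8% for Il4ra and Elf3, in decile 9, with a median of 3.64. It was 41.2% for Il13ra1, in decile 1, with a median of -1.95. The part of GC content was not tested.

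**Figure D4:**
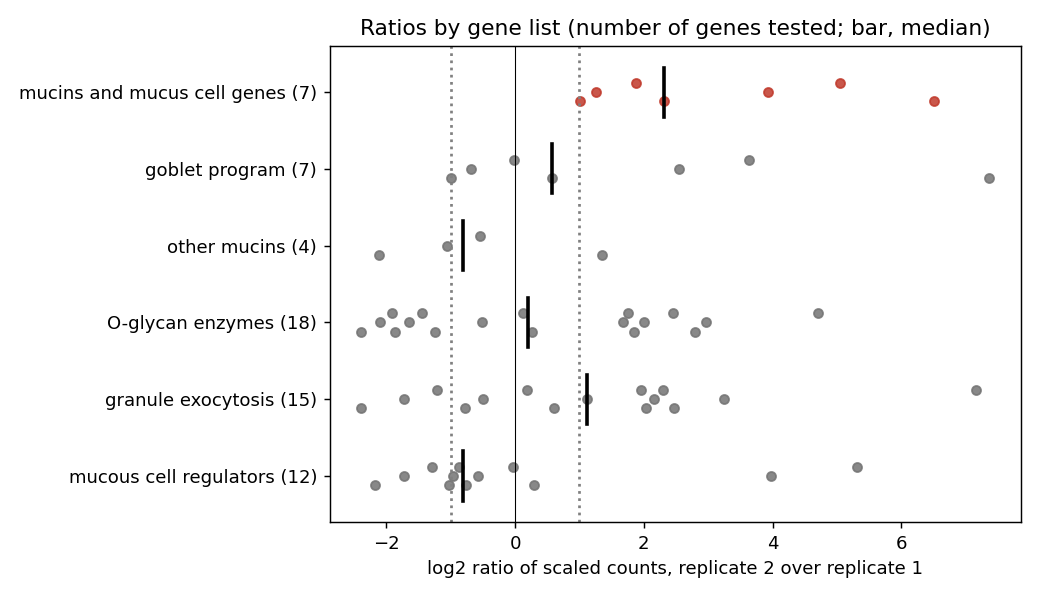
Log2 ratio of scaled counts, replicate 2 over replicate 1, for each tested gene of the mucins and mucus cell genes (top row) and of 5 related lists, with the number tested in brackets, a black bar at the median and dotted lines at 2-fold. Spdef and Fcgbp, which had 0 counts in replicate 1, are drawn at values that depend on the prior of 0.5 counts. The top row has a median of 2.32, but Muc5b, Spdef and Tff2 entered it through replicate 2 alone, so its place beside the other lists, which spread to both sides of 0, is a description only.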

How the data were processed

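Polyadenylated RNA of 1 mouse lung was sequenced in 2 libraries, and the authors deposited a gene and a transcript table for each, against mm10 and annotation M4 per the deposited file descriptions. The aligner is not given in the sources used here, nor is the quantifier. Per the file headers, the deposited values are expected counts (estimated reads, with ambiguous reads shared out), TPM, FPKM and the percent of its gene held by each transcript. The authors also deposited credibility bounds and lengths, recorded here as signal and not used for a result. Counts were rounded for ratios. Libraries were scaled with TMM factors (edgeR 4.0.16, R 4.3.3) of 1.095 for replicate 2 and 0.913 for replicate 1, and log2 ratios used a prior of 0.5 counts. DESeq2 1.42.0 gave size factors for an alternative. Only genes averaging 1 TPM or more were tested, against a 2-fold threshold. Intervals are exact, Poisson for levels and Clopper-Pearson for ratios, at 95%. They cover counting error only, because no molecular identifiers are described and PCR copies may count as reads. The floor of 3 counts is per library. Symbols, positions and sequences came from GENCODE M21 on GRCm38, where 42462 of 43346 gene identifiers matched. The GC content of a gene is the mean over its annotated transcripts, and its trend was fitted by lowess (span 0.3). The ratio step was tested on simulated data. Python 3.11.15, pandas 2.3.3, scipy 1.17.1 and statsmodels 0.14.6 were used. The genes and lists were chosen with earlier results of these data known. All 10 genes are named, with the 2 transcripts of highest mean TPM of each, and the 4 genes of highest mean TPM in each pathway list. Of the marker lists only some of the 4 genes of highest mean TPM are named. The full-length and 10805-base Muc4 transcripts, Ano3, the other trefoil genes, Fcgbp, Muc genes below 1 TPM and marker genes at 0 counts were added after their values were seen. So were Il4ra and Elf3. Whether both libraries came from the same RNA extraction is not stated in the labels.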

Additional observations from a re-analysis of the deposited data

How the results depend on the processing

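No paired analysis was possible because the design has 1 group, so there are no numbered replicates in a second group to pair. Leaving out a library gives no ratio. The number of genes at 1 TPM, 4 in both libraries, was 7 without replicate 1 and 4 without replicate 2, since 1 library then decides. The mean summed level of 145.4 TPM was 235.3 TPM without replicate 1 and 55.58 TPM without replicate 2. Subtracting the trend on GC content had the most effect: the genes over 2-fold higher fell to 4, against 7, those over 2-fold lower numbered 1, against 0, and Muc1 (-1.10) and Muc4 (-0.29) turned sign on the log2 scale. With no filter on TPM 8 genes were over 2-fold higher, Muc5ac being added, and 1 was lower (Muc15, on 0 counts in replicate 2 and 2 in replicate 1). DESeq2 size factors, the ratio of TPM and a prior of 2 counts each gave 6 genes over 2-fold higher. Scaling by total counts moved the median log2 ratio of all tested genes to 0.45, against 0.19. The lowest and highest values over the alternatives were 2.15 and 3.10 for Agr2, 3.22 and 5.31 for Tff2, 1.83 and 4.20 for Muc5b, 0.94 and 2.14 for Muc20 and 1.42 and 6.76 for Spdef, all above 0. The 1.42 of Spdef, with the GC trend subtracted, rests on the prior of 0.5 counts. At the floor of 3 counts its ratio of 3.90 was below the median of 5.08 of its GC decile. Of 49 alternative ratios 39 lay within the exact counting interval of the reported ratio, 8 lay outside it and 2 reversed. For Spdef, with 0 counts in replicate 1, that interval has no upper bound, and values as low as 3.90 fell in it beside the reported 6.50. Muc5ac, Muc15, Spdef and Tff2 each had 4 counts or fewer in replicate 1, so their ratios are imprecise, although the totals of the libraries were close.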

Other observations

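Enzymes that build O-linked sugar chains were found on both sides of equal levels, as were all tested genes, of which 39.3% were over 2-fold higher in replicate 2 and 28.2% over 2-fold lower. Of 25 listed, 18 had a mean of at least 1 TPM, of which 8 were over 2-fold higher in replicate 2 and 7 were over 2-fold lower, with a median log2 ratio of 0.20, near the 0.19 of all tested genes. C1galt1c1, the chaperone of the enzyme that extends the first sugar, had 42.1 TPM in replicate 2 and 169 TPM in replicate 1, at a GC content of 39.1%. Galnt1, one of the transferases that add the first sugar, had 33.2 TPM in replicate 2, against 89.3 in replicate 1, at 44.5%. Galnt18, of the same family, had 71.5 TPM in replicate 2, against 10.1 in replicate 1, at 56.4%. Galnt2, another transferase, had 19.9 TPM in replicate 2 and 35.4 TPM in replicate 1, although its scaled counts were 3.21-fold higher in replicate 2 (2.65 to 3.92) at a GC content of 54.7%, so its count and TPM ratios had opposite signs.

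Of 16 genes listed for release of secretory granules, 15 had a mean of at least 1 TPM, of which 8 were over 2-fold higher in replicate 2 and 3 were over 2-fold lower, with a median log2 ratio of 1.11, beside 39.3% higher and 28.2% lower over all tested genes. Vamp8, a membrane fusion protein of mucin granules, had 762.5 TPM in replicate 2 and 169.96 TPM in replicate 1. Marcks, a regulator of granule release, had 64.2 TPM in replicate 2, against 373 in replicate 1. Snap23, a membrane fusion protein, had 29.5 TPM in replicate 2, against 110.45 in replicate 1, and Rab27a, a granule transport protein, had 29.6 TPM in replicate 2, against 44.65 in replicate 1.

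Of 11 other mucins and mucin-like genes 10 were matched and 4 had a mean of at least 1 TPM. None of the 4 is a gel-forming mucin. Cd164, a sialomucin, had 127 TPM in replicate 2 and 606 TPM in replicate 1. Emcn, the endothelial sialomucin, had 63.6 TPM in replicate 2 and 141 in replicate 1. Mcam, an adhesion protein, had 120.23 TPM in replicate 2 and 55.0 in replicate 1. Ovgp1, an oviduct glycoprotein, had 0.87 TPM in replicate 2 and 1.32 in replicate 1. Of these 4, 1 was over 2-fold higher in replicate 2 and 2 were over 2-fold lower, with a median log2 ratio of -0.81, beside the same 39.3% and 28.2% over all tested genes. The other 6, Muc2, Muc3, Muc3a, Muc6, Muc13 and Muc19, were below a mean of 1 TPM, and Muc6 had 0 counts in both libraries.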
